A study of Mus musculus with 18 samples.

Results

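Of 45267 regular array probes, 20 met a rule for being brightest in conventional CD4+ T (Tconv) cells of brown adipose tissue (BAT). These probes were selected on measured values of the same arrays. A probe was taken when the lowest of the 6 BAT Tconv arrays lay above the highest of the other 12 on the log2 scale after quantile normalization, when the means of the 6 and the 12 differed by at least 0.5, and when splenic Tconv cells did not lie above splenic regulatory T (Treg) cells on all 3 arrays of each. The higher level in BAT Tconv cells is therefore a description of the choice and was given no test.

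Expression was measured on 18 Illumina MouseWG-6 v2.0 arrays, 3 for each of 6 groups, from C57BL/6 mice that the labels give as Foxp3-GFP-DTR-CD90.1 throughout. Warm BAT Tconv and warm BAT Treg cells came from mice kept at 30°C, cold BAT Tconv and cold BAT Treg cells from mice moved to 12°C for 2 days, and splenic Tconv and splenic Treg cells from the 30°C mice. The labels give Tconv cells as CD4+Foxp3- and Treg cells as CD4+CD25+Foxp3+, whereas the study's methods name wild-type female mice obtained at 8 weeks of age and a sort on CD25. Organs were pooled, so each array stands for a pool of mice and the spread between arrays is not a spread between single mice. From each pool, 2.5 ng of RNA was amplified before labeling. Warm BAT, cold BAT and spleen each filled 1 of 3 BeadChips, with 3 Treg and 3 Tconv arrays on each. Tissue, temperature and BeadChip therefore cannot be told apart, whereas Tconv and Treg cells of one tissue were compared within a BeadChip. On each BeadChip the sample titles give Tconv cells arrays A to C and Treg cells D to F. Cell type and array letter thus cannot be told apart.

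Tconv cells are the helper lineage of CD4+ T cells: they recognise antigen through the T cell receptor and answer with cytokines, and in tissues they are mostly antigen-experienced. Treg cells, which depend on the transcription factor Foxp3, restrain them. BAT burns lipid to produce heat in the cold, and its stromal fraction holds small populations of both cell types.

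The deposited table names probes by Illumina identifiers only and a probe annotation was not used here, so the members are given by identifier, their genes and sequences are not given, and the Tconv and BAT labels were not checked against marker genes. In sorted cells measured in bulk, fewer cells of a type and less RNA per cell cannot be told apart.

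Before the size and spleen criteria, 29 probes had no overlap between BAT Tconv cells and the other arrays. Of these, 5 were under the size limit, nearest to it ILMN_1214364 with a difference of 0.48 and ILMN_2861406 with 0.46. Of the remaining 24, 4 were left out because splenic Tconv cells exceeded splenic Treg cells on every array, namely ILMN_1251178, ILMN_1231814, ILMN_1221846 and ILMN_2584685, whose differences were 1.76, 1.05, 0.90 and 0.86. Just inside the size limit lay ILMN_2684316 and ILMN_1237580, both with a difference of 0.54. Just outside the limit on overlap, ILMN_1220418 had a lowest BAT Tconv value equal to the highest other value (gap 0.00) and ILMN_1217786 overlapped by a little (gap -0.013), although their means were 0.77 and 0.70 apart. When the first 2 criteria were put to the 6 BAT Treg arrays instead, 163 probes met them, compared with 24 for BAT Tconv cells.

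**Figure D1:**
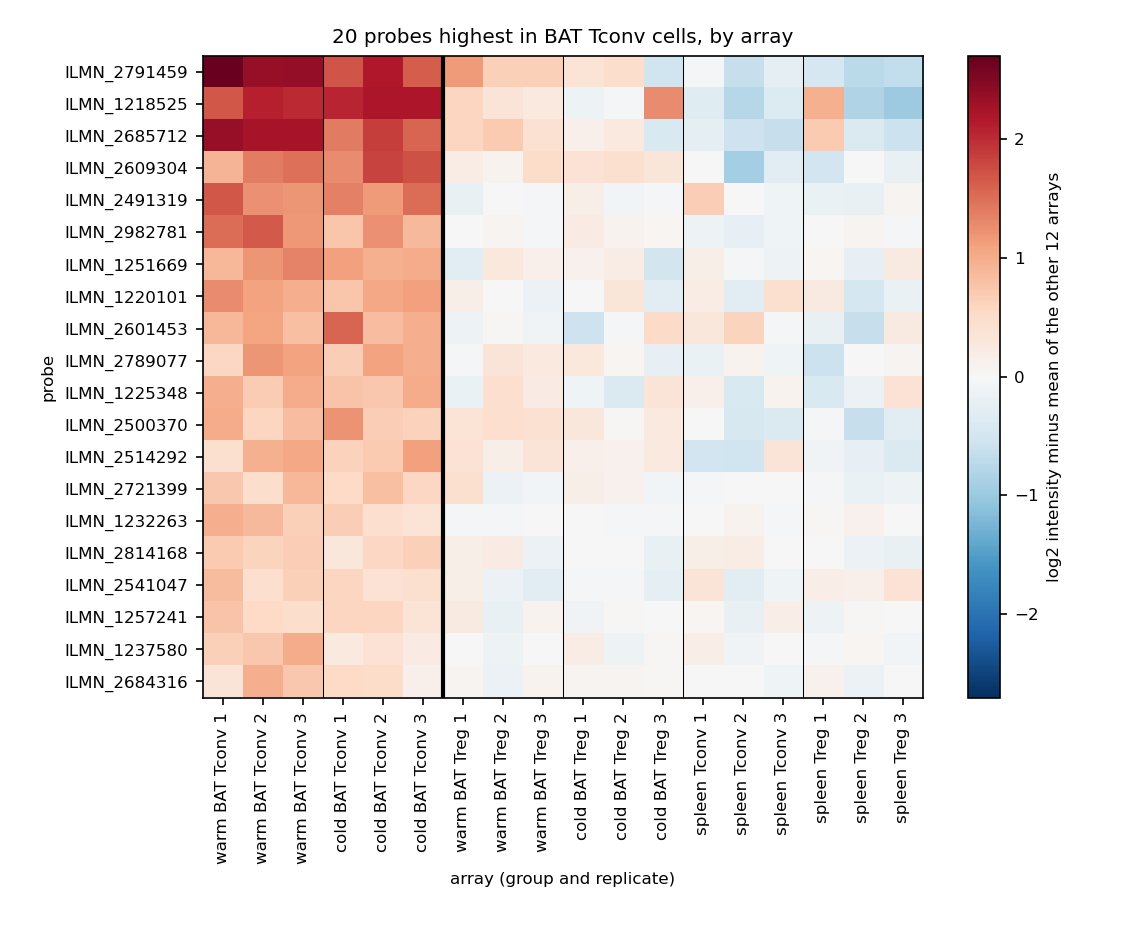
Log2 intensity of the 20 members (rows, ordered by difference) on each of the 18 arrays (columns, by group and replicate), minus the probe's mean over the 12 arrays outside BAT Tconv cells. The 6 columns left of the thick line are the BAT Tconv arrays that chose the members. To its right, ILMN_1218525 is bright on cold BAT Treg replicate 3 and splenic Treg replicate 1, and ILMN_2791459 is raised on warm BAT Treg replicate 1.

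The differences between the mean of the 6 BAT Tconv arrays and the mean of the other 12 ran from 0.54 to 2.15 on the log2 scale. They were over 1 in 9 members and over 2 in 2. The largest belonged to ILMN_2791459 (2.15), ILMN_1218525 (2.03), ILMN_2685712 (1.94), ILMN_2609304 (1.44), ILMN_2491319 (1.35) and ILMN_2982781 (1.20), followed by ILMN_1251669, ILMN_1220101 and ILMN_2601453 between 1.08 and 1.03, ILMN_2789077 with 0.93, ILMN_1225348 with 0.86 and ILMN_2500370 with 0.82. These intensities still hold the background of the array, which narrows the differences of dim probes.

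ILMN_2791459, the member with the largest difference, had log2 intensities of 10.08, 9.75 and 9.77 in warm BAT Tconv cells and 9.10, 9.57 and 9.03 in cold BAT Tconv cells. In warm BAT Treg cells it stood at 8.56, 8.05 and 8.05, and in cold BAT Treg cells at 7.77, 7.88 and 6.87. In splenic Tconv cells it gave 7.35, 6.79 and 7.13, and in splenic Treg cells 6.96, 6.68 and 6.75. The levels thus formed steps, with warm above cold in both BAT cell types without overlap and all 6 splenic arrays below every BAT array except cold BAT Treg replicate 3. Before any normalization its bead intensities were 1392, 873 and 978 in warm BAT Tconv cells and 111, 112 and 124 in splenic Treg cells, where it was detected on 0 of 3 arrays.

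ILMN_1218525 read 9.45, 9.86 and 9.78 in warm and 9.82, 9.95 and 9.97 in cold BAT Tconv cells. Warm BAT Treg cells gave 8.36, 8.12 and 8.03 and splenic Tconv cells 7.44, 7.00 and 7.41. Cold BAT Treg cells gave 7.64, 7.74 and 9.04 and splenic Treg cells 8.74, 6.96 and 6.79. In these last 2 groups 1 array each stood more than 1 log2 unit above its replicates, and the spread between arrays within groups was the widest of the 20 members (SD 0.57).

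ILMN_2685712 gave 9.65, 9.51 and 9.52 in warm and 8.69, 9.16 and 8.86 in cold BAT Tconv cells. It read 7.89, 7.99 and 7.70 in warm and 7.43, 7.57 and 6.89 in cold BAT Treg cells. Splenic Tconv cells gave 7.05, 6.74 and 6.67 and splenic Treg cells 8.00, 6.90 and 6.72. As with ILMN_1218525, splenic Treg replicate 1 stood above the other splenic arrays, while cold BAT Treg replicate 3, bright for ILMN_1218525, was the lowest BAT array here. After background correction, ILMN_2685712 was 6.60-fold higher in warm BAT Tconv than warm BAT Treg cells and 7.73-fold higher in the cold pair, where it was detected on 2 of 3 Treg arrays. It was not detected on the 3 splenic Tconv arrays, against which warm BAT Tconv cells were at least 16.7-fold and cold BAT Tconv cells at least 9.18-fold higher, taking as floor on each splenic array the higher of its own signal and the lowest signal that passed detection.

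**Figure D2:**
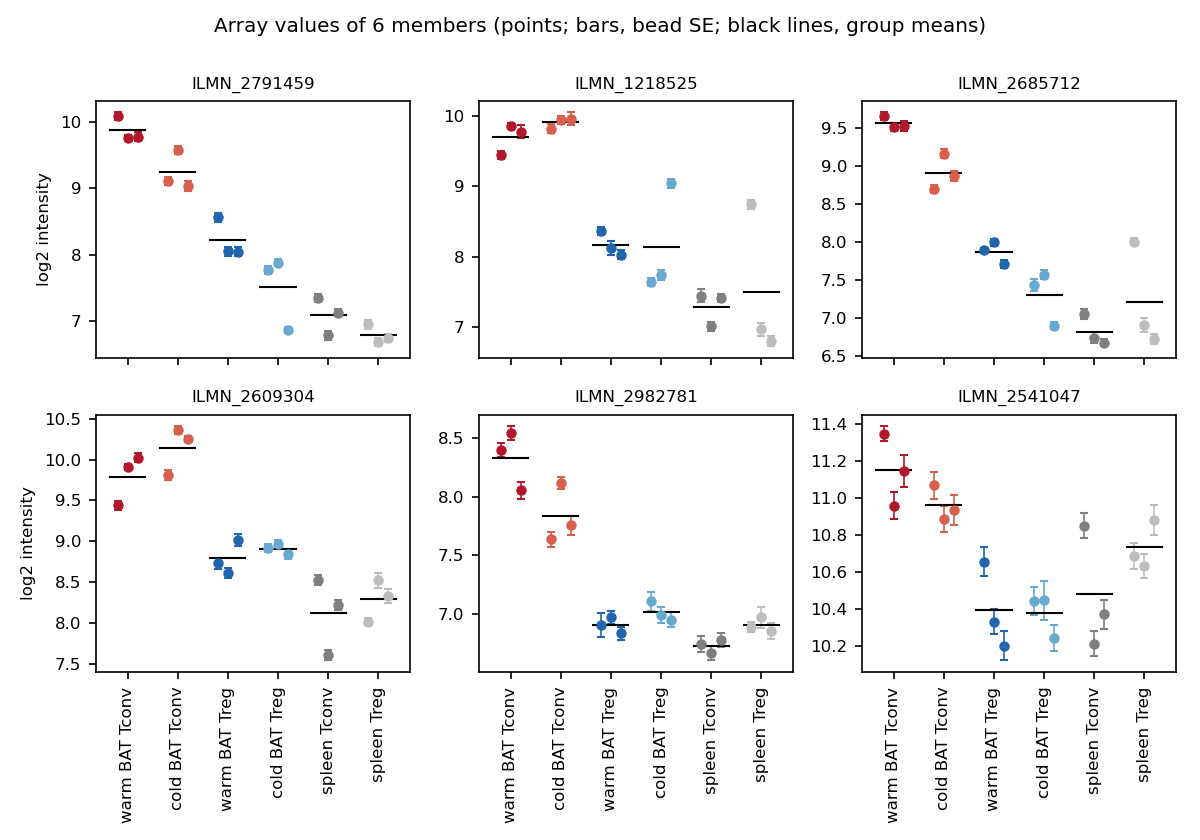
Log2 intensity after quantile normalization (y axis) of 6 members on every array, by group (x axis). Points are arrays, bars the standard error over the beads of the array, and black lines group means. ILMN_2791459 and ILMN_2685712 step down from BAT Tconv to BAT Treg cells and are lower in cold than in warm groups, and ILMN_2982781 is flat outside BAT Tconv cells.

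Detection (a deposited p-value under 0.05) divided the members further. Between 18.7% and 24.9% of an array's negative controls also passed this limit, which is therefore a loose one. It passed 35.7% to 42.2% of regular probes on BAT arrays and 27.8% to 35.1% on splenic arrays. Of the 20 members, 18 were detected on all 6 BAT Tconv arrays and 14 lay above the 95th percentile of the negative controls on each of these. On no BAT Treg array were 4 members detected, and on no splenic array 5.

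The members read at or near background outside BAT Tconv cells were led by ILMN_2982781, with 8.40, 8.54 and 8.06 in warm and 7.63, 8.12 and 7.76 in cold BAT Tconv cells. On the 12 other arrays it lay between 6.66 and 7.11 and was detected on 0. ILMN_1232263 was detected on the same 6 arrays alone, with 7.97, 7.85 and 7.62 in warm and 7.64, 7.43 and 7.35 in cold BAT Tconv cells. It lay between 6.93 and 7.10 on the other arrays. At this loose limit its pattern of detection was that of ILMN_2982781 at a smaller difference. Above the 95th percentile of the negative controls, ILMN_2982781 stood on 5 of the 6 BAT Tconv arrays and ILMN_1232263 on 3. After background correction, warm BAT Tconv cells were at least 5.35-fold higher than warm BAT Treg cells for ILMN_2982781 and at least 2.57-fold for ILMN_1232263. In the cold pair the bounds were at least 2.61-fold and at least 1.53-fold.

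ILMN_2491319 gave 8.74, 8.30 and 8.24 in warm and 8.42, 8.21 and 8.57 in cold BAT Tconv cells. All 6 BAT Treg arrays lay between 6.85 and 7.21, and 5 of the 6 splenic arrays between 6.85 and 7.13. Splenic Tconv replicate 1, at 7.73, was the only splenic array on which it was detected. Warm BAT Tconv cells were at least 6.03-fold higher than warm BAT Treg cells, in which it was detected on 0 of 3 arrays.

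The dimmest 3 members were seen less firmly. ILMN_1237580 was detected on all 3 warm but on 1 cold BAT Tconv array, with 7.48, 7.57 and 7.86 in warm and 7.11, 7.23 and 7.07 in cold BAT Tconv cells. ILMN_2684316 passed detection on 4 of 6 BAT Tconv arrays and reached 7.00, 7.65 and 7.40 in warm and 7.20, 7.15 and 6.80 in cold BAT Tconv cells, against at most 6.78 elsewhere. Only 1 of the 6 arrays stood above the 95th percentile of the negative controls for each of these 2. ILMN_2721399 passed detection on all 6 BAT Tconv arrays and on warm BAT Treg replicate 1, its highest other array (7.30). This member, ILMN_1257241 and ILMN_2814168 fell outside the rule for naming and were named after their values were seen.

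Detected on all 18 arrays were 6 members: ILMN_2609304, ILMN_2789077, ILMN_1225348, ILMN_2514292, ILMN_2814168 and ILMN_2541047. For these, BAT Tconv cells had more of a signal that passed the loose detection limit in every group. Above the 95th percentile of the negative controls, ILMN_2814168 stood on only 3 of 6 splenic arrays and ILMN_2609304 on 5. ILMN_2609304 gave 9.44, 9.91 and 10.02 in warm and 9.81, 10.36 and 10.25 in cold BAT Tconv cells, between 8.62 and 9.02 in BAT Treg cells and between 7.61 and 8.53 in spleen. BAT Tconv, BAT Treg and splenic arrays of this probe did not overlap. ILMN_2541047, the brightest member, gave 11.35, 10.96 and 11.15 in warm and 11.07, 10.89 and 10.93 in cold BAT Tconv cells. Its splenic Treg arrays stood at 10.69, 10.63 and 10.88, above the 3 cold BAT Treg arrays at 10.44, 10.45 and 10.25, and the highest of them missed the lowest BAT Tconv array by 0.0066. The other 4 had means of 8.37 to 10.04 in BAT Tconv cells.

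The remaining 5 members, ILMN_1251669, ILMN_1220101, ILMN_2601453, ILMN_2500370 and ILMN_1257241, were detected on every BAT Tconv array and on 4 to 10 of the other 12. Their means in BAT Tconv cells lay between 7.67 and 8.57. ILMN_2500370 was detected on all 12 BAT arrays and on 3 splenic arrays. It gave 7.96, 8.05 and 8.00 in warm BAT Treg cells, 7.91, 7.62 and 7.86 in cold BAT Treg cells and between 6.98 and 7.58 in spleen, so BAT Treg cells lay between BAT Tconv cells (8.18 to 8.81) and the spleen.

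**Figure D3:**
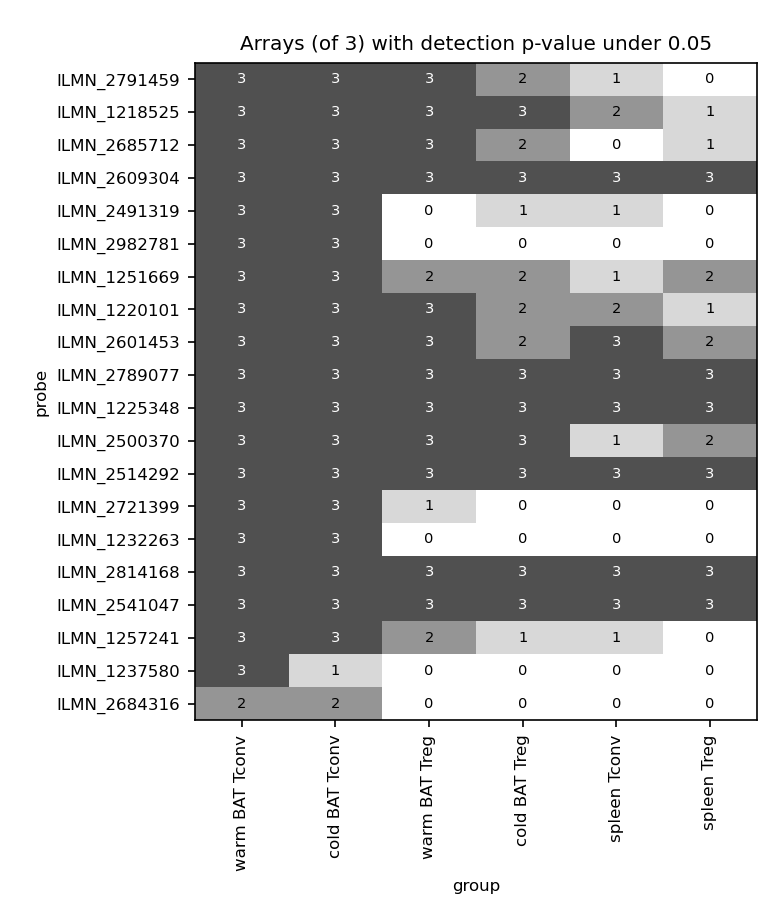
Number of arrays, of 3 per group (columns), on which each member (rows) had a deposited detection p-value under 0.05. ILMN_2982781 and ILMN_1232263 read 3 in both BAT Tconv groups and 0 in the other 4 groups, and 6 members read 3 in every group.

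How far the members stood apart was set against 2 errors. The first was the standard error over the beads of a probe, of which an array held a median of 38 to 42. The gap between the lowest BAT Tconv array and the highest other array exceeded its bead error in 14 of 20 members and was over 2 such errors in 10. The second was the standard deviation between arrays within groups, which was larger than the typical bead error in all 20. The gap, which the rule itself sets above 0, exceeded it in 8 members. The largest ratios were those of ILMN_2982781 (3.40 times), ILMN_1251669 (2.51 times) and ILMN_1232263 (2.43 times). This deviation was pooled over all 6 groups. ILMN_2982781 and ILMN_1232263 lay near background outside BAT Tconv cells, which lowers their pooled deviation (0.15 and 0.10) and raises their ratios. For ILMN_2541047, ILMN_1237580, ILMN_2684316, ILMN_2514292, ILMN_2721399 and ILMN_2814168, the gap was smaller than both errors, at 0.0066 to 0.081 log2 units. The nearest array outside BAT Tconv cells was a warm BAT Treg array for 10 members, a cold BAT Treg array for 3 and a splenic array for 7.

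**Figure D4:**
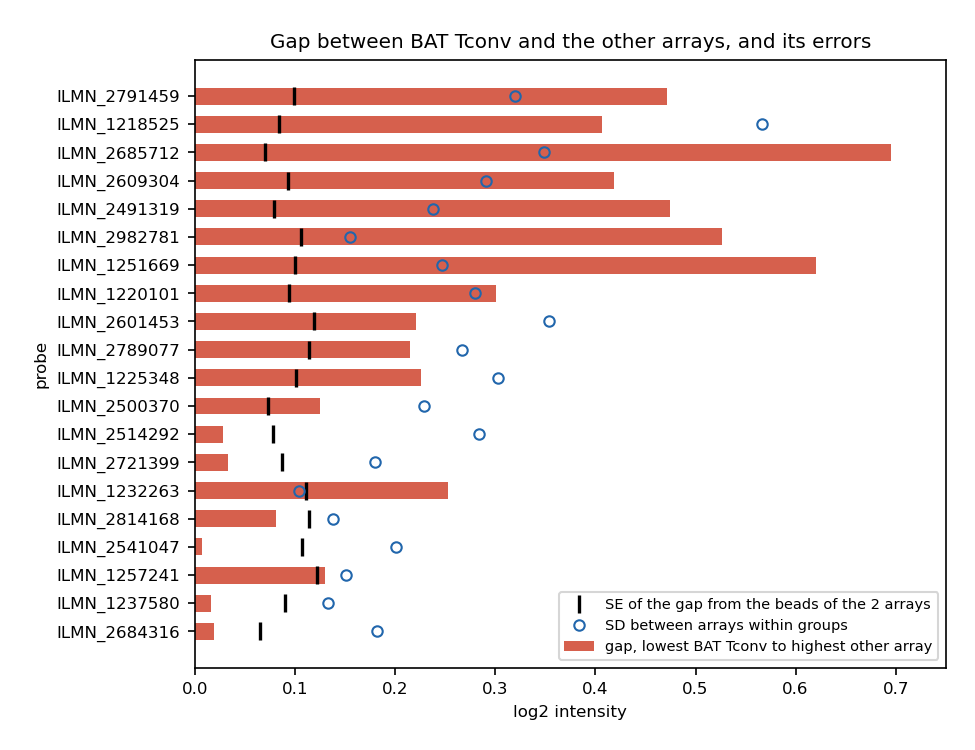
Gap in log2 intensity (x axis) between the lowest BAT Tconv array and the highest of the other 12 arrays for each member (bars), with the standard error of that gap from the beads of both arrays (black ticks) and the standard deviation between arrays within groups (open circles). The bar passes the circle for 8 members and is shorter than the tick for 6.

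Within groups, the members did not move as one. Over 190 pairs of members, the correlation of the array values after subtraction of the group means (18 arrays, 6 groups) had a median of 0.057 and ran from -0.61 to 0.70, with 10 pairs over 0.5. ILMN_2791459 and ILMN_1220101 had the highest value. All arrays share their normalization, and these correlations are given as a description. The mean of the 20 members was 8.82 ± 0.020 (SD, n = 3) in warm BAT Tconv, 8.67 ± 0.036 in cold BAT Tconv, 7.86 ± 0.030 in warm BAT Treg, 7.77 ± 0.027 in cold BAT Treg, 7.62 ± 0.13 in splenic Tconv and 7.59 ± 0.10 in splenic Treg cells.

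The comparisons tested were ones that the choice did not make directly, although it used values of the same arrays. For these, intensities were background-corrected with the negative controls, quantile-normalized and fitted with limma. The fit covered the 17395 probes that were detected on all 3 arrays of at least 1 group, with adjustment over all of these. A call needed an adjusted p under 0.05 and more than 2-fold. The fit held 19 of the 20 members, without ILMN_2684316, and 7 of the 19 passed the filter in BAT Tconv groups only. For any 1 probe on 3 against 3 arrays, the smallest two-sided p of an exact permutation test is 0.1.

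The first comparison asked whether the cold challenge changed these probes in the cells in which they were highest. Between cold and warm BAT Tconv cells, 0 members were called by limma, against 0.00575% of all tested probes. At an unadjusted p under 0.05 there were 3 members, all lower in cold, against 4.37% of all tested probes. These were ILMN_2982781, with a background-corrected log2 signal of 6.49 ± 0.56 (SD, n = 3) in cold and 7.51 ± 0.46 in warm cells (log2 difference -1.01, SE 0.24, adjusted p = 0.771 from limma), ILMN_1237580 (-0.89, SE 0.18, adjusted p = 0.496 from limma) and ILMN_1232263 (-0.74, SE 0.19, adjusted p = 0.805 from limma). ILMN_1237580 passed the filter through the warm BAT Tconv arrays alone and was detected on 1 of 3 cold BAT Tconv arrays. None of the 3 differences holds after adjustment.

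On single arrays, cold and warm BAT Tconv cells did not overlap for ILMN_2791459, ILMN_2685712 and ILMN_1237580, each lower in cold, against 13.7% of all tested probes without overlap in either direction. For ILMN_2791459 the log2 difference was -0.78 (95% interval -1.58 to 0.024) and for ILMN_2685712 -0.87 (-1.77 to 0.037), so intervals of both reached 0. The highest differences were those of ILMN_2609304 (0.41) and ILMN_2601453 (0.31). In all, 15 of 19 members had a value below 0 and 4 above, against 51.7% of all tested probes above 0. Some of the 15 were near 0, such as ILMN_2514292 (-0.00086) and ILMN_2789077 (-0.040). With 1 array left out at a time, 11 to 15 members lay below 0. The split was 11 below and 8 above without warm BAT Tconv replicate 3. The median of the 19 was -0.17 compared with 0.0095 over all tested probes. Of the 7 members that passed the filter in BAT Tconv groups only, 0 lay above 0 (-1.01 to -0.044), compared with 4 of the other 12. The 95% intervals lay within 2-fold in both directions for 10 members, and for the other 9 a 2-fold change in at least 1 direction was within the interval.

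In BAT Treg cells the same challenge again gave 0 called members, against 0.0862% of all tested probes, and 2 at an unadjusted p under 0.05, against 5.98%. These 2 were ILMN_2791459, at 5.96 ± 0.92 in cold and 7.29 ± 0.54 in warm BAT Treg cells (log2 difference -1.33, SE 0.38, adjusted p = 0.351 from limma), and ILMN_2685712 (-1.09, SE 0.42, adjusted p = 0.656 from limma). Both were also lower in cold BAT Tconv cells. Together with ILMN_2500370 they had no overlap between cold and warm BAT Treg arrays, against 13.4% of all tested probes. The highest differences were those of ILMN_2601453 (0.21) and ILMN_2609304 (0.18), and the median over 19 members was -0.11 compared with -0.040 over all tested probes. In both cell types the warm and cold arrays lay on different BeadChips, and temperature and BeadChip cannot be told apart.

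Whether the cold response differed between the cell types was tested as an interaction. In it a shift of a whole BeadChip cancels where a probe lies well above background in both cell types. No member was called (0 of 19 by limma), against 0% of all tested probes. At an unadjusted p under 0.05 there were 3 members, against 3.94%, again ILMN_2982781 (-1.11, SE 0.34), ILMN_1237580 (-0.95, SE 0.25) and ILMN_1232263 (-0.74, SE 0.27), with an adjusted p of 1.00 from limma for each. These 3 were not detected in BAT Treg cells, where they lay near background, so for them a shift of a whole BeadChip need not cancel. The highest were ILMN_2791459 (0.55) and ILMN_2500370 (0.49), and the intervals of 6 members lay within 2-fold. Of the 7 members that passed the filter in BAT Tconv groups only, 0 lay above 0. This compared with 10 of the other 12 and with 55.4% of all tested probes. In BAT Treg cells these 7 lay near background, with cold minus warm between -0.12 and 0.093. Their interaction thus largely repeats their difference in BAT Tconv cells and is no separate result on the cell types.

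The next comparison set BAT Treg against splenic Treg cells, a contrast that the rule did not make directly. The rule did hold both groups below every BAT Tconv array, and splenic Treg values entered its last criterion. Counts of members here are thus not independent of the choice. In warm BAT Treg cells 2 of 19 members were called higher and 0 lower, against 3.40% of all tested probes. After background correction ILMN_2791459 stood at 7.29 ± 0.54 (SD, n = 3, log2 signal) in warm BAT Treg and at 4.87 ± 0.090 in splenic Treg cells, where it was not detected. The fitted log2 difference was 2.42 (SE 0.38, adjusted p = 0.00229 from limma). With the lowest signal that passed detection as floor, it was at least 4.34-fold higher in warm BAT Treg cells. That limit was loose, and a stricter floor would give a smaller bound. This member lay above the 95th percentile of the negative controls on 0 splenic arrays. ILMN_2500370 had 6.89 ± 0.10 in warm BAT Treg and 5.39 ± 0.42 in splenic Treg cells, with a fitted log2 difference of 1.50 (SE 0.31, adjusted p = 0.0142 from limma). Its splenic Treg level passed detection on 2 of 3 arrays but lay above the 95th percentile of the negative controls on 0, so no fold is given for it. Both were higher on 3 of 3 warm BAT Treg arrays than on any splenic Treg array.

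The call of ILMN_2500370 was lost without warm BAT Treg replicate 2 (adjusted p = 0.0514 from limma) or splenic Treg replicate 2 (0.0655), and its difference fell to 1.00 with an offset of 50 and to 0.73 without background correction, under the 2-fold limit. With the methods' t-test both calls were lost (adjusted p = 0.0966 for ILMN_2791459 and 0.131 for ILMN_2500370 by Benjamini-Hochberg over all tested probes), and ILMN_2791459 kept its call under every other alternative run.

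At an unadjusted p under 0.05, ILMN_2685712 (1.02), ILMN_2609304 (0.83) and ILMN_2514292 (0.78) were higher too, which made 5 members against 20.9% of all tested probes. No overlap was seen for 4 members, ILMN_2791459, ILMN_2609304, ILMN_2500370 and ILMN_2514292, against 28.5%. The lowest values were those of ILMN_2541047 (-0.37) and ILMN_1232263 (-0.061). The 7 members that passed the filter in BAT Tconv groups only lay near background in both Treg groups, with differences between -0.061 and 0.18, and the other 12 ran from -0.37 to 2.42. Scaling the arrays to a common median instead of quantile normalization raised the median of all tested probes by 0.26. With it 5 members were called, all higher. Calls over all tested probes rose as well, from 591 to 969.

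Cold BAT Treg cells were compared with the same 3 splenic Treg arrays, so the 2 comparisons share them. No member was called by limma (0 of 19), against 5.23% of all tested probes, and 3 had an unadjusted p under 0.05, against 26.0%. ILMN_2500370 was nearest (log2 difference 1.03, SE 0.31, adjusted p = 0.0550 from limma), followed by ILMN_2791459 (1.09, SE 0.38, adjusted p = 0.0849 from limma) and ILMN_2609304 (1.00, SE 0.39, adjusted p = 0.120 from limma). Median scaling raised the median of all tested probes by 0.28 here. With it 4 members were called, all higher, and calls over all tested probes rose from 909 to 1484. ILMN_2500370 was among the 4 members (log2 difference 1.50, adjusted p = 0.0142 from limma). Without splenic Treg replicate 1, 2 members were called, beside 953 calls over all tested probes. Without cold BAT Treg replicate 3, 1 was called (ILMN_2791459, 1.62, adjusted p = 0.00437 from limma), beside 1015 calls over all tested probes. No overlap was seen for 5 members, against 31.2%, higher in BAT for ILMN_2609304, ILMN_2500370 and ILMN_2514292 and lower for ILMN_1232263 and ILMN_2541047. The lowest values were -0.39 for ILMN_2541047 and -0.073 for ILMN_2685712, of which both turned above 0 with median scaling (0.058 and 0.19). The value of ILMN_2685712 also turned without splenic Treg replicate 1 (0.59), the array on which it was bright.

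**Figure D5:**
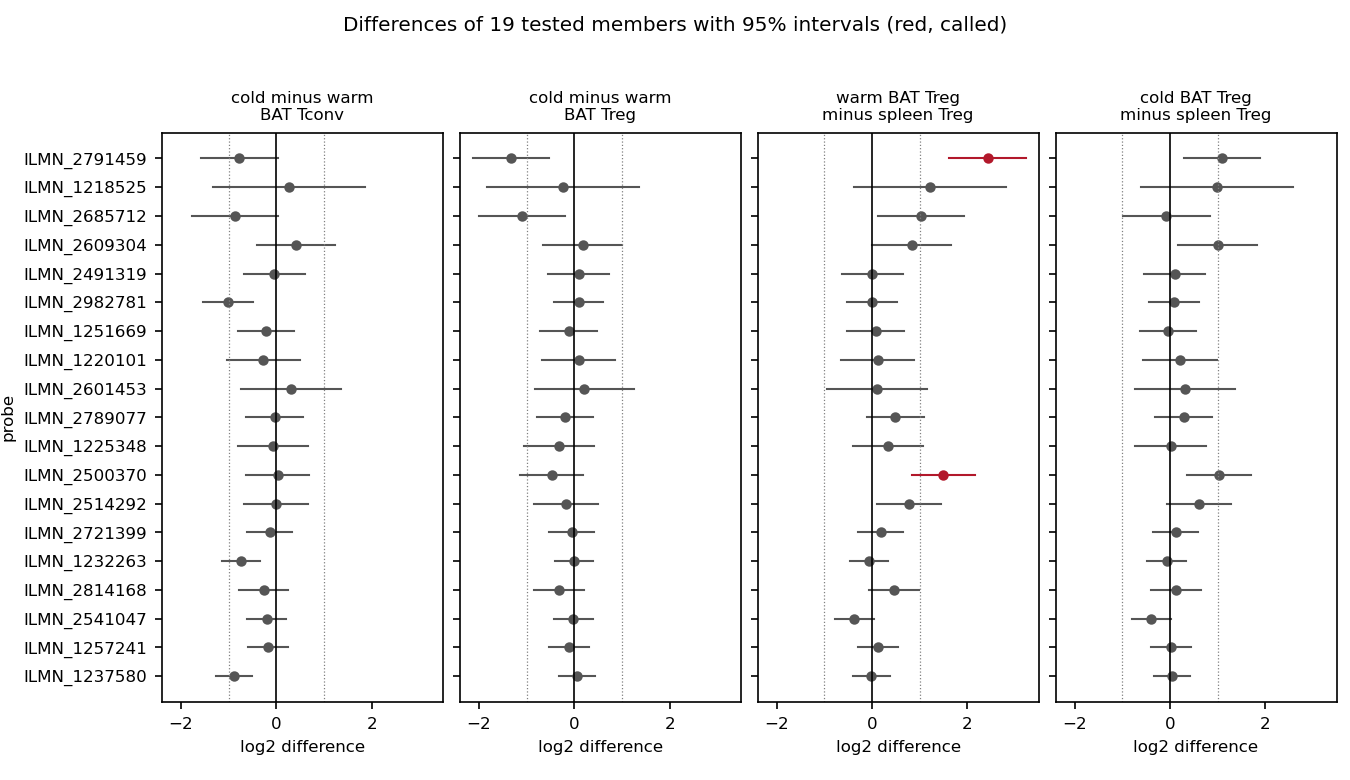
Log2 differences (x axis, points) with 95% intervals (lines) of the 19 tested members (rows) in 4 comparisons from 1 limma fit of 18 arrays. Dotted lines mark 2-fold. The 2 called members, ILMN_2791459 and ILMN_2500370 in warm BAT Treg against splenic Treg cells, are red, and no member is called in the other 3 panels.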

How the data were processed

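The authors deposited 1 table of mean bead intensities, which were not normalized per the file headers, with detection p-values and, as other columns, the standard deviation and number of beads. The 36 columns of bead quality counts were not used, and the calculation of the detection p-value is not given in the sources used here. Arrays were matched to samples by the table's headers.

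The members were found on log2 intensities, quantile-normalized over 18 arrays. For tests, the neqc function of limma 3.58.1 in R 4.3.3 corrected the background with 936 negative controls, with an offset of 16. One fit of the 18 arrays held a mean for each of 6 groups and left 12 residual degrees of freedom, and p-values were adjusted by Benjamini-Hochberg over 17395 probes. A bound took, on each array, the higher of the probe's own signal and the lowest signal with a detection p-value under 0.05. Because that limit was loose, a stricter floor would give smaller bounds. The fit was tested on simulated data. Plots were made in matplotlib 3.10.9 under Python 3.11.15.

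The members and lists were chosen with earlier results of these data known. Named were the 12 members with the largest difference, the 5 brightest, those nearest each threshold, and in each comparison those called and the 2 highest and 2 lowest. The results were recomputed without background correction, with an offset of 50, with median scaling, without the filter or with a detection p-value under 0.01, with a replicate block, on the compared arrays alone, without each array, and with the methods' t-test. A gene list of T cell and tissue markers needs a probe annotation and was not analysed here. The 3 arrays per group and the signal over background limit the precision.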

Additional observations from a re-analysis of the deposited data

How the results depend on the processing

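The rule gave 20 members, and 17 to 28 with 1 array left out at a time, of which 16 to 20 were among the 20. Of the 20, 11 met the rule in each of these 18 sets. A minimum difference of 1 left 9, median scaling gave 15 probes with 13 of the 20 among them, and background-corrected values gave 23 with all 20. Between warm BAT Treg and splenic Treg cells, 2 members were called, 1 without background correction, 1 with an offset of 50, 5 with median scaling, 0 with the methods' t-test once adjusted by Benjamini-Hochberg, and 1 to 4 with arrays left out (4 without splenic Treg replicate 1, 1 without splenic Treg replicate 2 or warm BAT Treg replicate 2). Between cold BAT Treg and splenic Treg cells, 0 were called, but 4 with median scaling, 2 with the methods' t-test unadjusted and 0 to 2 with arrays left out. The replicate block called 1 (ILMN_2500370, adjusted p = 0.0158 from limma) and changed no other count. Same-numbered arrays correlated in their deviations from group means at -0.036 to 0.089 between the groups of the direct comparisons and at -0.0067 to 0.187 between BAT Tconv and BAT Treg cells of one temperature, over 0.1 in no comparison for all 3 numbers, so the numbers were not taken as pairs. Between cold and warm BAT Treg cells the unadjusted methods' t-test gave 1. Other reversals were ILMN_2601453 in cold against warm Tconv cells without cold BAT Tconv replicate 1 (-0.019, range with arrays left out -0.019 to 0.53) and in Treg cells without cold BAT Treg replicate 3 (-0.33, range -0.33 to 0.68), and ILMN_2685712 in cold BAT Treg against splenic Treg cells without background correction (0.089), with median scaling (0.19), without cold BAT Treg replicate 3 (0.20) or splenic Treg replicate 1 (0.59, range -0.43 to 0.59), and ILMN_2541047 there with median scaling (0.058). Median scaling moved the median of all tested probes by 0.26 and 0.28 in warm and cold BAT Treg against splenic Treg cells and by -0.13 in the interaction, where 15 of 19 members then lay below 0 in place of 9. Median scaling also raised the calls over all tested probes in both comparisons with splenic Treg cells. These calls rose from 591 to 969 for warm and from 909 to 1484 for cold BAT Treg cells. The marker lists could not be run without a probe annotation. The causes were not tested.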
